A study of Mus musculus with 167 samples.

Results

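The collagen genes of mouse tumours are described here: all genes of the count table whose symbol is Col, a number, the letter a and a number. The rule found 44 genes of the 36118 in the table. They were 11 fibrillar chains, 8 chains of basement membranes, 6 chains of beaded filaments, 9 chains that sit on the surface of fibrils (FACIT collagens), 4 transmembrane chains, 3 chains of hexagonal networks, 1 anchoring fibril chain and 2 others.

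The tumours came from offspring of MexTAg mothers and fathers of 35 strains of the Collaborative Cross (CC), a panel of inbred strains that together carry much of the genetic variation of laboratory and wild-derived mice. In MexTAg mice the promoter of mesothelin, a gene of the mesothelial cells that line the body cavities, drives the large T antigen of SV40. The groups compared all carry the transgene, and all mice had been given crocidolite asbestos into the peritoneum, 2 injections of 3 mg a month apart, and no other treatment by the labels. The labels sort the mice by survival: 36 mice with 52 of the 167 tumours lie below the median and 83 mice with the other tumours lie above it. The comparison between these classes asks whether collagen levels differ with disease course, and the comparison between strains asks whether they differ with the father's strain. No untreated tissue, mesothelium without asbestos or mouse without the transgene is among the samples, so all values are levels in tumours.

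The mouse was the unit of comparison. A mouse with several tumours entered with their summed counts. Levels are given as CPM, the counts of a gene relative to the library total after TMM scaling, and as log2 CPM for means and correlations. Libraries held 11138491 to 35399287 counts, with a median of 22539831. Whole tumours were sequenced, so fewer cells of a type and less RNA per cell cannot be told apart. Summed markers of mesothelial cells, such as Msln and Wt1, lay between 24.04 and 3852 CPM in mice below median survival and between 10.96 and 4948 CPM in mice above it, and none of these markers was at 0 in most mice. In 17 libraries the markers of liver, pancreas, fat, skeletal muscle, kidney, intestine or seminal vesicle took over 1% of counts. In 5 of 162 libraries with a second mouse of their strain, the expression of 300 strain-informative genes was nearer to another strain than to the labelled one: Rogan-C3 tumour 2, LOX-D1 tumour 2, LAT-F5 tumour 2, LAT-D3 tumour 2 and MEE-A3 tumour 1.

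Collagens are secreted proteins whose chains wind around each other into a stiff helix. Types I, III and V, with the rarer XI, XXIV and XXVII, assemble into the fibrils that give connective tissue its tensile strength. Type IV forms the sheet-like network of basement membranes, type VI forms beaded filaments around cells, and the FACIT collagens decorate fibrils. Fibroblasts are the chief source of types I, III and VI in solid tumours, and dense collagen is a known feature of sarcomatoid and desmoplastic mesothelioma.

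Some collagen chains are encoded next to each other. Col4a1 and Col4a2, the main chains of the type IV network, lie head to head on mouse chromosome 8 and are read in opposite directions from a shared stretch of DNA. The windows from 250 bases before to 50 bases after each RefSeq start (build GRCm38.p6) are chr8:11312777-11313076 on the minus strand for Col4a1 and chr8:11312555-11312854 on the plus strand for Col4a2. They share 78 bases, chr8:11312777-11312854, printed in capitals on the strand of each gene. These sequences are shown because the levels of both genes had a higher correlation over mice than all but 1 of the 28 pairs of genes described further on.

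Col4a1: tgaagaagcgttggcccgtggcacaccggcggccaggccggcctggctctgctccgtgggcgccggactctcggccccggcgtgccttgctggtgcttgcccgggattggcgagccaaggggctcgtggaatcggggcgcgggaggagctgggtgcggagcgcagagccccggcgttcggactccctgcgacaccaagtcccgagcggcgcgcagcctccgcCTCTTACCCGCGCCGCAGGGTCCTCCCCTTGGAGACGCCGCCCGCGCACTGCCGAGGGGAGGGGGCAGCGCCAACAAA
Col4a2: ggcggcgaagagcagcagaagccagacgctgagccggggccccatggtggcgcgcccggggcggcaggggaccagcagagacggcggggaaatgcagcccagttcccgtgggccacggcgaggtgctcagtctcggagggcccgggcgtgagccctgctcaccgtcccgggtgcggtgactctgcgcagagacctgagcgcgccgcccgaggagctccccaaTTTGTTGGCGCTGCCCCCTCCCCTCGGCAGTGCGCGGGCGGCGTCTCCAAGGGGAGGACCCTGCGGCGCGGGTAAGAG

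The windows at the RefSeq starts of the abundant fibrillar chains Col1a2 (chr6:4505368-4505667, plus strand) and Col3a1 (chr1:45311288-45311587, plus strand) lie on separate chromosomes. They are shown for contrast, since both proteins are also found in the same fibrils. Capitals mark matches to CCAAT and to the TATA box motif TATAAA, read on either strand.

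Col1a2: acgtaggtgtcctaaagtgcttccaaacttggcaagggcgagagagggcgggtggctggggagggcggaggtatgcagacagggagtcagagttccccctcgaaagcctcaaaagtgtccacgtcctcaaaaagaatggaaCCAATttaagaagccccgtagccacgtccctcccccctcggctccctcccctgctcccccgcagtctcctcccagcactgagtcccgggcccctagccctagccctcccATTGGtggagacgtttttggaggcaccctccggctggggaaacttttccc
Col3a1: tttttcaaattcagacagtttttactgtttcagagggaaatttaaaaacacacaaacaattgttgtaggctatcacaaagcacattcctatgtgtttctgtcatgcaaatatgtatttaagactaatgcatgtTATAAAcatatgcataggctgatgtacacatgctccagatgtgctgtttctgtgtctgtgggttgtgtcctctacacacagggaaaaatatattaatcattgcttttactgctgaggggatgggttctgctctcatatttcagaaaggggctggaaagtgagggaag

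The Col4a1 and Col4a2 windows held 74% and 73.7% G and C, the Col1a2 window 61% and the Col3a1 window 37.7%. The Col1a2 window held 2 matches to CCAAT and none to TATAAA, and the Col3a1 window held 1 match to TATAAA and none to CCAAT. Bases beyond the windows were not searched, so a motif absent from a window can lie just outside it. Whether the RefSeq starts are those used in these tumours was not tested. A promoter window was found for 35 of the 44 collagen genes, 38 windows in all. CCAAT on either strand was in 34.2% of these windows, against 37.4% of the 32851 windows of all genes. TATAAA was in 13.2% of collagen windows and 13.6% of all windows. GGGCGG, the GC box, on either strand was in 60.5% of collagen windows and 35.7% of all windows, and the median G and C content was 59.8% and 52.7%. The motifs do not overlap in letters, and a match in a window is a description of the sequence only.

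The fibrillar chains of types I and III were the most abundant collagens. Counts of the 44 genes took 0.172% to 8.65% of all counts in mice below median survival, with a median of 2.79%, and 0.112% to 9.72% in mice above it, with a median of 2.31%. Both ranges overlapped almost entirely. The lowest shares were in CC044-J3 below the median and LOX-E4 above it, and the highest were in TAS-H5 below and VUX-E2 above. Fibroblast markers summed to 675, 216, 7300 and 8545 CPM in these 4 mice, against a median of 4076 over all mice. Leukocyte markers summed to 4924, 2360, 2393 and 1696 CPM, against a median of 1162. LOX-E4 had the lowest sums of fibroblast and mesothelial markers of all mice, the latter at 10.96 CPM. The part of these cell types in the shares was not tested. Per kilobase of transcript, the highest median levels over all 119 mice were those of Col3a1, the type III chain, at 1065 CPM per kb, Col1a1 at 776 and Col1a2 at 623, the chains of type I. The beaded filament chains Col6a1 and Col6a2 followed at 297 and 198 CPM per kb. Col5a2 and Col5a1, type V chains that help to start fibrils and limit their width, had 163 and 87.4 CPM per kb. Col4a1, Col6a3 and Col4a2 had 81.5, 80.9 and 56.8 CPM per kb. At the other end, the cartilage chain Col2a1 had a median of 0.0377 CPM per kb, and Col9a1, another cartilage chain, was at 0 in most mice.

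Types I and III together took 41.8% to 79.8% of collagen counts in mice below median survival, with a median of 64.8%, and 33.3% to 84.03% in mice above it, with a median of 63.8%. Type VI took a median of 13% below and 12.1% above, and type V 8.28% below and 7.80% above. Type IV took a median of 3.61% below and 5.28% above, within ranges of 1.32% to 14.9% below and 0.466% to 37.3% above. The extremes were of opposite make-up. In VUX-E2 types I and III took 84.03% of collagen counts, type VI 1.86% and type IV 0.466%, whereas in LOX-F4 type IV took 37.3%, and types I and III 33.3%. Fibroblast markers summed to 8545 CPM in VUX-E2 and 491 CPM in LOX-F4, and leukocyte markers to 1696 and 6641 CPM. Their part in the make-up was not tested.

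**Figure D1:**
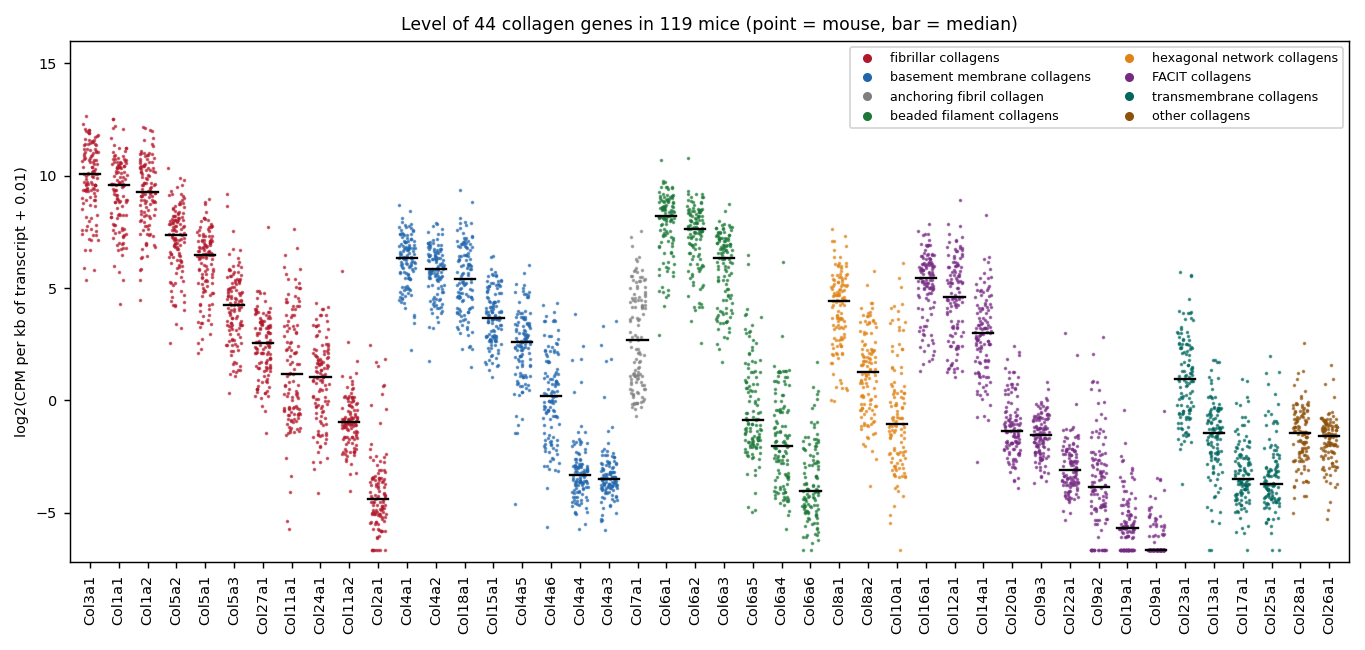
Level of each collagen gene in each of the 119 mice (points), as log2 of CPM per kb of its longest coding transcript with a small constant added, with a bar at the median and genes coloured by collagen type. Col3a1, Col1a1 and Col1a2 have the highest medians, at 1065, 776 and 623 CPM per kb before the log.

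Rarer collagens were mostly low with single mice far above the rest. Col6a4, a beaded filament chain, had a median of 1.75 CPM and 532 CPM in KAV-G2, which held 48.98% of the summed CPM of that gene over all mice. Col11a2, a chain of cartilage fibrils, had a median of 3.01 CPM and 324 CPM in Piping-I3, where it held 40.2% of the sum. Col4a4 and Col4a3, the type IV chains of the kidney's filtration membrane, had medians of 0.909 and 0.676 CPM and reached 144 and 98.6 CPM in CC081-C5. That mouse also had the highest sum of kidney markers, 3536 CPM, with Umod, a protein of the kidney tubule, at 2554 CPM. The part of kidney tissue in these type IV values was not tested. Col4a3 also reached 30.7 CPM in KAV-G2 and 28.6 CPM in LOX-F4, where the kidney markers summed to 0.266 and 0.110 CPM. In Piping-I3 the bone genes Ibsp and Bglap were at 316 and 109.1 CPM, their highest of all mice, while the cartilage marker Acan was at 6.82 CPM, below its median of 14.7. All 6 bone markers summed to 704.5 CPM in Piping-I3 and to 941.7 CPM in CC040-D3, the highest of all mice. In the 4 mice of CC040 Col11a2 lay between 0.316 and 1.11 CPM. The part of bone-forming cells in the Col11a2 value of Piping-I3 was not tested. In KAV-G2 the smooth muscle and pericyte markers summed to 10292 CPM, the highest of all mice against a median of 500 CPM, and their part in its collagen values was not tested.

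Between survival classes the collagen genes gave 1 call. The test over all 119 mice had no term for strain, and only 13 of the 35 strains held both classes. Mice of a strain were thus taken as independent, and class and strain cannot be fully told apart in it. Of 42 collagen genes tested, 1 passed the threshold of 0.05 on the adjusted p, Col11a2, and it was lower in mice below median survival; of all 17091 genes tested 267 passed (1.56%). The median log2 fold change of the 42 genes, below minus above, was 0.05, against -0.02 over all genes tested, and 22 of the 42 were positive. Unadjusted p was under 0.05 for 8 collagen genes and for 1544 of all genes. DESeq2 called 285 of all genes (1.67%) and limma-voom called 0 (0%), with no collagen gene among them.

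Col1a1 lay between 242 and 26154 CPM in mice below median survival, with a median of 4523, and between 116 and 35314 CPM in mice above it, with a median of 4600. The groups overlapped over nearly their whole range, and the log2 fold change was -0.06 ± 0.29 (SE; adjusted p = 0.986, edgeR), with an interval from -0.63 to 0.52. Col1a2, the partner chain of type I, had a log2 fold change of 0.20 ± 0.28 (adjusted p = 0.931). Col3a1 lay between 329 and 27686 CPM below, with a median of 6413, and between 230 and 36173 CPM above, with a median of 5710, a log2 fold change of 0.29 ± 0.27 (adjusted p = 0.863). Its interval ran from -0.24 to 0.82, and the classes overlapped as for type I.

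In the basement membrane, Col4a1 lay between 85.5 and 2725 CPM in mice below median survival and between 31.3 and 2257 CPM in mice above it, with medians of 543 and 532. Its log2 fold change was -0.08 ± 0.21, and that of Col4a2 was -0.06 ± 0.21 (adjusted p = 0.974 and 0.979). Of the beaded filament chains, Col6a1 lay between 106.5 and 2984 CPM below and between 30.6 and 6714 CPM above, with medians of 1352 and 1190. The log2 fold changes of Col6a1, Col6a2 and Col6a3 were 0.07 ± 0.23, 0.06 ± 0.25 and 0.07 ± 0.28, with adjusted p of 0.976 to 0.983. Their intervals reached from -0.47 to 0.61 at most.

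None of the type V chains passed. Col5a1 had a log2 fold change of 0.20 ± 0.26, Col5a2 0.54 ± 0.26 and Col5a3, a minor type V chain, 0.60 ± 0.32. Their adjusted p were 0.928, 0.508 and 0.581. Col27a1, a fibrillar chain of cartilage, had 0.76 ± 0.28 (adjusted p = 0.212). It was at 1621 CPM in VIT-K2, a mouse below the median, and at 224 CPM in the next highest mouse. Its medians were 46 CPM below and 41.6 CPM above.

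Col11a2, the member that passed, lay between 0.579 and 8.45 CPM in mice below median survival, with a median of 2.77, and between 0.316 and 324 CPM in mice above it, with a median of 3.19. All mice below the median lay within the range of those above. The log2 fold change was -1.45 ± 0.36 (adjusted p = 0.0118). Without Piping-I3, a mouse above the median with 324 CPM, the log2 fold change was -0.56 and the adjusted p 0.317, so the call rested on that mouse. Col22a1, a FACIT chain of tissue junctions, came next: it lay between 0.132 and 2.97 CPM below and between 0.205 and 70.9 CPM above, with medians of 0.761 and 0.976, and its log2 fold change was -1.21 ± 0.35 (adjusted p = 0.0530), and -1.29 (adjusted p = 0.0377) without the 5 libraries nearer to another strain. The 70.9 CPM were again in Piping-I3.

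**Figure D2:**
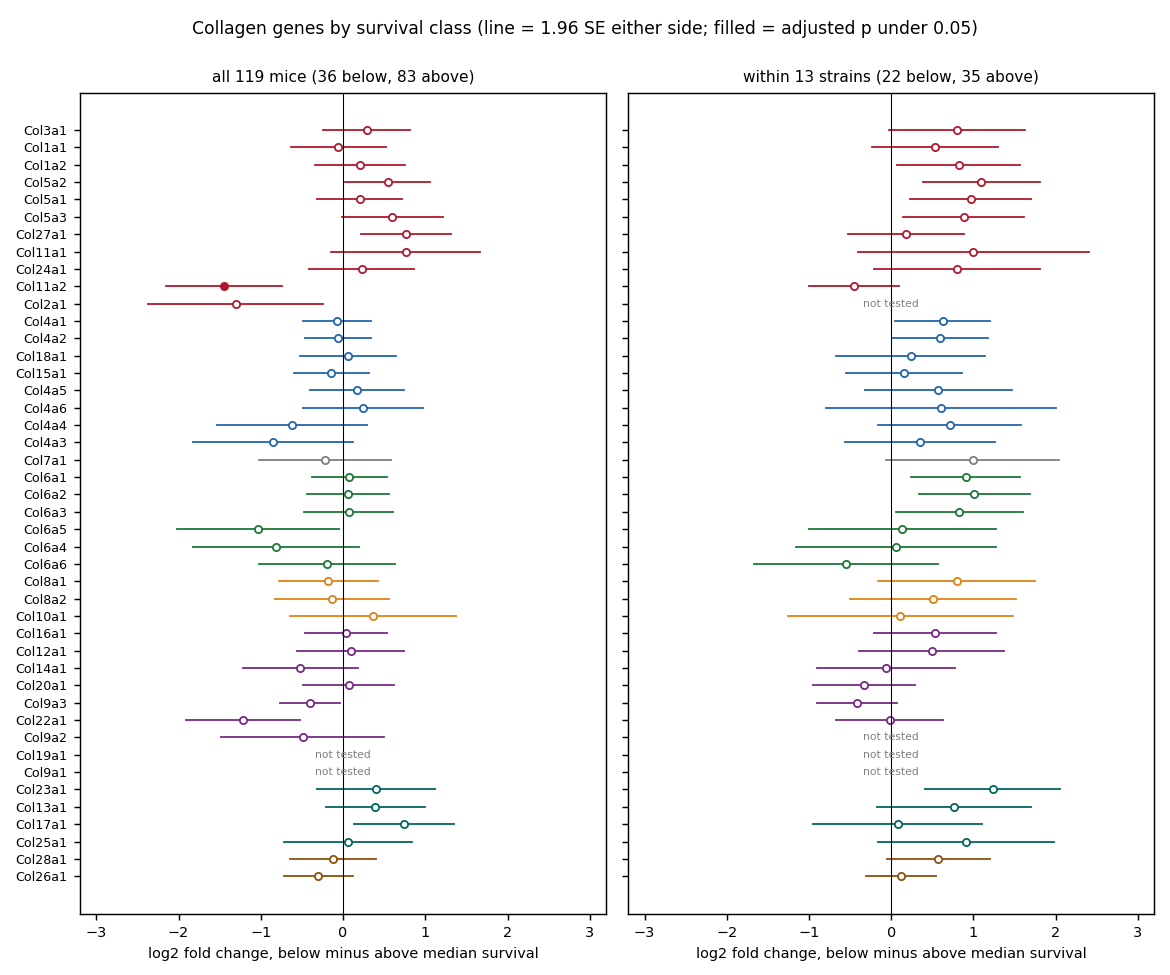
Log2 fold change of each tested collagen gene between survival classes (below minus above median survival), over all 119 mice on the left and within the 13 strains that hold both classes on the right, with lines for 95% intervals and a filled point where the adjusted p is under 0.05. Over all mice Col11a2, at -1.45, is the filled point, and within strains 34 of 40 values are above 0 and no point is filled.

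Some markers of other tissues passed between the classes in the same libraries with edgeR, and none did with limma-voom. Summed fibroblast markers lay between 651 and 18716 CPM in mice below median survival and between 216 and 15240 CPM above it, with medians of 4402 and 4076, and none of the 7 passed. Of the 4 kidney markers, 3 passed and were lower in mice below median survival, with sums between 0.0906 and 18.2 CPM below and between 0 and 3536 CPM above. The 3536 CPM were those of CC081-C5, and the median sum over all mice was 1.18 CPM. Of the 6 bone markers 1 passed, Bglap, osteocalcin, which was lower in mice below median survival as Col11a2 was (log2 fold change -3.05 ± 0.76, adjusted p = 0.0116) and highest in the same mouse, Piping-I3. The bone markers summed to between 29.1 and 296.6 CPM below and between 17.6 and 941.7 CPM above. Also lower in mice below median survival were 1 of 5 intestine markers, Sis (-4.94 ± 1.02, adjusted p = 0.000928), and 2 of 5 seminal vesicle markers, Svs3a and Svs6 (adjusted p = 0.0140 and 0.0193). All 5 seminal vesicle markers were at 0 in most mice of both classes, and they summed to 221259 CPM in LOX-B4, a mouse above the median. No marker of the other cell types passed. In 8 strains (CC001, CC021, CC036, CC058, CC081, GIT, LAX and Piping) Umod exceeded 2 CPM in every mouse, and these strains held 7 mice below and 21 above the median. Without these strains Col11a2 had a log2 fold change of -0.58 (adjusted p = 0.424). Piping is among them, so this step also left out Piping-I3, without which alone the value was -0.56 (adjusted p = 0.317). The part of these other tissues in the Col11a2 result was not tested.

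Within strains no collagen gene passed, while the log2 fold changes of the chains of types I, III, IV and V and of Col6a1 to Col6a5 were positive and that of Col6a6 was -0.55. The comparison used the 13 strains that hold both classes, 22 mice below and 35 above, with strain as a covariate. Of 40 collagen genes tested none passed, as for all 16481 genes (0 passed, 0%), while unadjusted p was under 0.05 for 9 collagen genes and 1882 of all genes. DESeq2 called 65 of all genes (0.394%), none of them a collagen gene, and limma-voom called none. The log2 fold change was positive for 34 of the 40, with a median of 0.57, against -0.01 over all genes tested. The share of all genes with a positive value is not given here. Many of the chains moved together over mice, as given further on, so the 40 values are not independent of each other. Of the cell markers none passed: 6 of 7 fibroblast markers were positive (median 0.44), as were 6 of 6 endothelial markers (0.53), while 0 of 5 leukocyte markers were (-0.84, with 3 at an unadjusted p under 0.05). Their part in the collagen values was not tested. Without the 5 libraries nearer to another strain no collagen gene passed either.

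Col5a2 lay between 70.5 and 6375 CPM in mice below median survival, with a median of 1509, and between 61.5 and 3794 CPM in mice above it, with a median of 869. Its mean was higher below the median in 10 of 13 strains, and the log2 fold change within strain was 1.10 ± 0.36 (adjusted p = 0.402). The strain-wise differences of its log2 means ran from -0.38 in CC059, with 2 mice below and 3 above, to 4.22 in VIT, with 1 mouse in each class. Col6a2 had medians of 1206 CPM below and 506 CPM above, a higher mean below in 10 strains and a log2 fold change of 1.01 ± 0.34 (adjusted p = 0.402). Col23a1, a transmembrane chain, had medians of 16.3 and 6.67 CPM and a log2 fold change of 1.23 ± 0.42 (adjusted p = 0.402). These were the 3 collagen genes of lowest p.

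Among the main chains the other values within strain were of similar size. The log2 fold changes were 0.91 ± 0.34 for Col6a1, 0.83 ± 0.39 for Col6a3, 0.96 ± 0.38 for Col5a1 and 0.88 ± 0.38 for Col5a3. Those of type I were 0.82 ± 0.38 for Col1a2 and 0.53 ± 0.39 for Col1a1, and that of Col3a1 was 0.80 ± 0.42. Col1a1 had medians of 6902 CPM below and 2717 CPM above, and its mean was higher below in 9 of 13 strains. Col4a1 and Col4a2 had 0.62 ± 0.30 and 0.59 ± 0.30. By type, 9 of 10 fibrillar, 8 of 8 basement membrane and 5 of 6 beaded filament chains were positive, with medians of 0.81, 0.58 and 0.48, against 2 of 6 FACIT chains with a median of -0.04. Col11a2 and Col22a1, the leading genes over all mice, had -0.46 ± 0.28 and -0.02 ± 0.33 within strain. Adjusted p of all these chains lay between 0.402 and 0.988.

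Levels differed between strains for many collagen genes, though for no larger share than of all genes. Among the 25 strains that had 3 or more mice, 24 of 43 collagen genes passed the test over all strains (55.8%), against 69% of all 20687 genes tested. The genes of lowest p were rare chains that were high in single mice. The passing genes were 5 of 11 fibrillar, 4 of 8 basement membrane, 4 of 6 beaded filament, 6 of 8 FACIT, 2 of 4 transmembrane and 2 of 3 hexagonal network chains, and the anchoring fibril chain Col7a1. With limma-voom, which works on log values, 20 collagen genes passed (50.4% of all genes). Without the 5 libraries nearer to another strain 28 collagen genes passed, with Col5a2 (adjusted p = 0.0387) and Col6a2 (0.0463) among them. The share of all genes that passed without these libraries is not given here.

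The share of collagen counts gives the strain pattern in brief. It averaged 6.42% ± 2.14 in Rogan (SD, n = 4), 5.97% ± 3.59 in VUX (n = 4), 5.39% ± 1.07 in Piping (n = 3) and 4.54% ± 1.957 in CC046 (n = 3). At the low end it averaged 1.67% ± 1.56 in LOX (n = 7), 1.43% ± 1.84 in LAX (n = 6) and 0.867% ± 0.585 in CC053 (n = 6). Mice of one strain could lie far apart: CC044 ran from 0.172% to 7.14% among 7 mice, while the 4 Rogan mice lay between 3.29% and 8.02% and the 6 CC053 mice between 0.282% and 1.70%. Rogan and CC053 did not overlap. Without the libraries nearer to another strain the mean was 7.42% ± 3.58 in Rogan, with 12.02% in Rogan-C3, and 1.61% ± 1.56 in LOX. Most neighbours in this order differed by less than the spread between their mice.

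**Figure D3:**
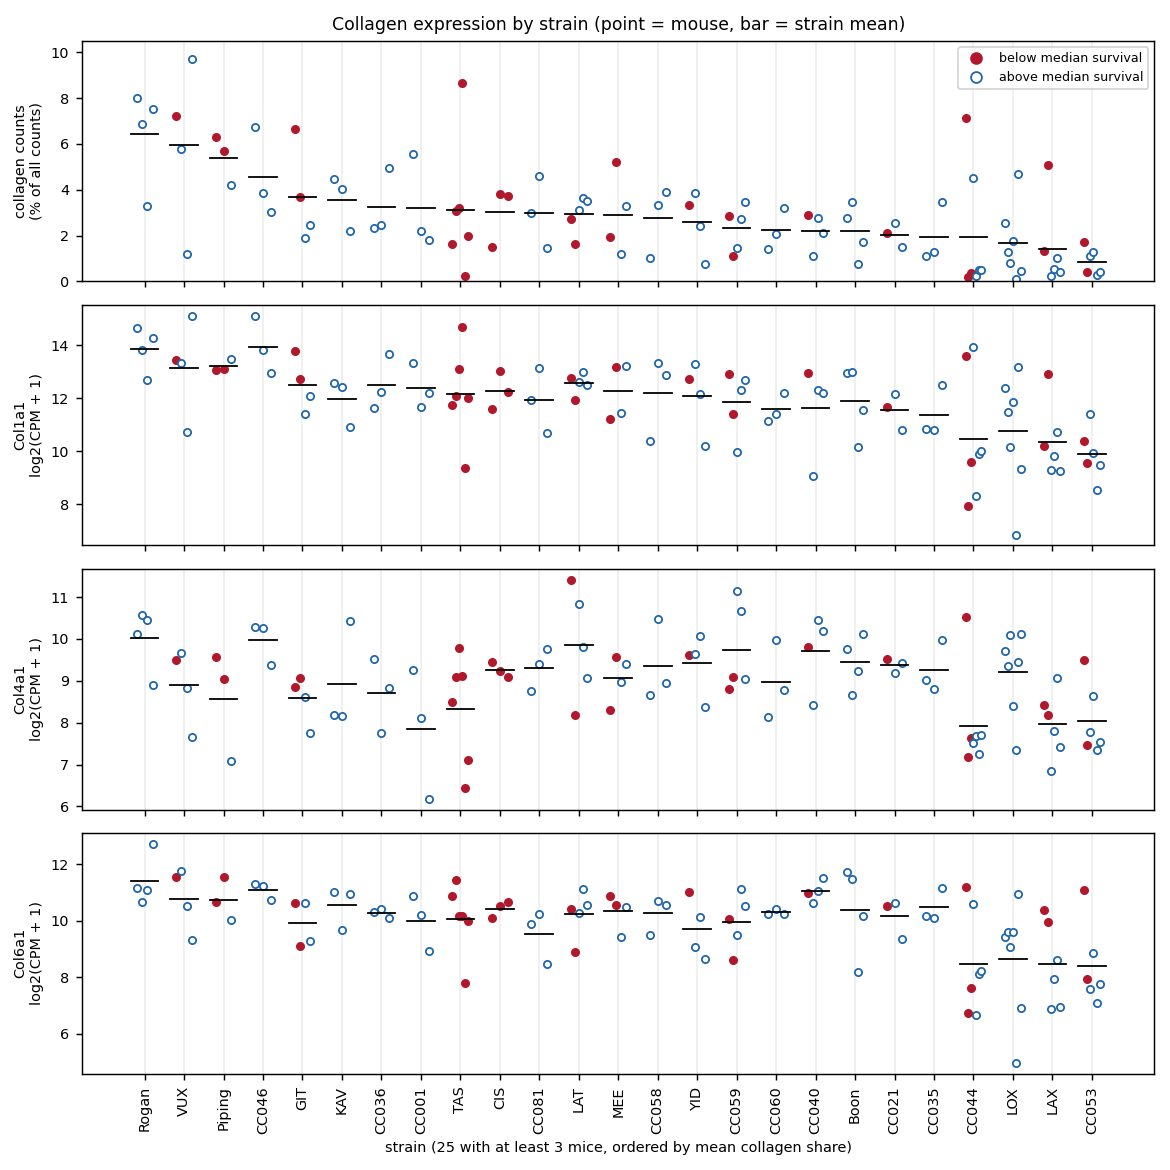
Share of all counts taken by the 44 collagen genes, in percent, and log2(CPM + 1) of Col1a1, Col4a1 and Col6a1 in each mouse of 25 strains, with bars at the strain means and mice below median survival left of those above. In the top panel the 4 Rogan mice lie between 3.29% and 8.02%, the 6 CC053 mice between 0.282% and 1.70%, and CC044 spans 0.172% to 7.14%.

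Of the main chains, the type I chain Col1a1 differed between strains (F = 1.97, adjusted p = 0.0217), as did Col4a1 (adjusted p = 0.0261), Col4a2 (0.0234) and Col6a3 (0.0395), the largest chain of type VI. Without the mouse of the highest level, the calls of Col4a1 and Col6a3 were lost, with an adjusted p of 0.0548 without LAT-A2 and 0.0711 without VUX-B1. Those of Col1a1 and Col4a2 were kept, with 0.0408 without VUX-E2 and 0.0428 without CC059-B5. Leaving out another high mouse, the highest by CPM without TMM factors, ended these as well, with 0.0601 for Col1a1 without CC046-H2 and 0.0513 for Col4a2 without CC059-A2. Col5a3 passed at an adjusted p of 7.27e-05 and still passed without its highest mouse, VUX-G1 (0.0117). The other chains of types I, III, V and VI did not pass, with adjusted p of 0.103 for Col1a2, 0.146 for Col3a1, 0.234 for Col5a1, 0.0719 for Col5a2, 0.118 for Col6a1 and 0.0511 for Col6a2. All 6 of these passed with limma-voom. Col4a6, Col9a3 and Col13a1 had the highest p, with adjusted p of 0.955, 0.767 and 0.573.

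The 6 collagen genes of lowest p between strains were Col11a2 (F = 10.4, adjusted p = 2.62e-14), Col4a3 (7.20, 1.49e-10), Col22a1 (6.56, 1.09e-09), Col4a4 (6.52, 1.25e-09), Col2a1 (5.87, 1.04e-08) and Col6a4 (5.17, 1.16e-07). Each still passed without the mouse of its highest level, with adjusted p of 0.0145 for Col6a4, 0.000341 for Col11a2 and lower for the other 4. A shift shared by several strains would remain in such a test. In the 28 mice of the 8 Umod strains the lowest Col11a2 was 2.78 CPM, against 0.316 CPM in the other 91 mice. For Col4a3 these were 0.570 and 0.0720 CPM. The medians of Col6a4 went the other way, at 0.628 and 2.02 CPM. The part of this in the strain results was not tested. With limma-voom, 5 of the 6 did not pass (adjusted p from 0.0510 for Col2a1 to 0.246 for Col4a3), and Col11a2 did. In Piping, Col11a2 was at 324, 4.45 and 8.45 CPM in the 3 mice and Col22a1 at 70.9, 1.28 and 1.60 CPM. In CC081, Col4a4 was at 144 CPM in 1 mouse. In LOX, Col2a1 was at 27.7 CPM in LOX-F2 and at 0 to 0.854 CPM in the other 6 mice. A pattern more even over the mice of a strain was that of Col6a4 in CC044, which was at 14.9 to 54.1 CPM in 6 of 7 mice and at 1.08 CPM in the remaining one, against a median of 1.75 CPM over all mice.

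Each strain was also set against the mean of the other 24. Over all 25 strains 67 of 1075 tests on collagen genes passed, and 7.38% of all tests on all genes did. KAV had the most collagen genes higher, CC053 the most lower, and CC035, CC060, CIS and YID had none in either direction.

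CC053 had 6 of 43 collagen genes lower (13.95%), against 3.17% of all genes lower, and none higher. Col1a1 was at 2696, 975, 1348, 751, 373 and 719 CPM in its 6 mice, all below the median of all mice of 4600 CPM. The log2 fold change was -2.33 ± 0.69 (adjusted p = 0.0205). Col6a3 was at 92.8 to 259 CPM, against a median of 818 over all mice, with a log2 fold change of -2.55 ± 0.68 (adjusted p = 0.00817). The others were Col7a1, the anchoring fibril chain, at 8.71 to 23.4 CPM (-3.19 ± 1.03), Col8a1, a chain of hexagonal networks, at 4.93 to 59.5 CPM (-2.46 ± 0.76), Col24a1 at 1.68 to 5.88 CPM (-2.79 ± 0.88) and Col23a1 at 1.42 to 5.85 CPM (-2.82 ± 0.91). The median log2 fold change of the 43 genes in CC053 was -1.21, against 0.04 over all genes. Summed fibroblast markers in these mice were 614 to 4076 CPM, against a median of 4402 CPM in all mice below and 4076 CPM in all mice above median survival. Leukocyte markers summed to 4141, 2933, 2386 and 1582 CPM in CC053-G3, CC053-H1, CC053-F1 and CC053-A1. They summed to 952 and 470 CPM in CC053-A4 and CC053-B1, against a median of 1162 CPM over all mice. The part of either cell type in the result was not tested. Leaving out 1 mouse of each strain at a time kept the direction of all 6 genes. The adjusted p of Col6a3 then lay between 0.00772 and 0.0528 and that of Col1a1 between 0.0138 and 0.114, both highest without CC053-A4 and the mice of the same number. Those of Col7a1, Col8a1, Col23a1 and Col24a1 reached 0.106, 0.102, 0.160 and 0.104. With limma-voom Col1a1, Col6a3 and Col8a1 passed (adjusted p = 0.0122, 0.0105 and 0.00806) and the other 3 did not.

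Rogan had 6 collagen genes higher (13.95%), against 4.18% of all genes. Col1a1 was at 25947, 14256, 6615 and 19498 CPM in its 4 mice, all above the median of all mice, with a log2 fold change of 1.71 ± 0.56 (adjusted p = 0.0425). Col1a2 was at 21354, 16571, 4391 and 13703 CPM, with 1.67 ± 0.56 (adjusted p = 0.0485). Col6a2 was at 1766, 1353, 1688 and 8238 CPM, with 1.82 ± 0.49 (adjusted p = 0.00883), and without Rogan-J2 and the other mice of that number it had 0.77 (adjusted p = 0.630). Col14a1, a FACIT chain, was among them with 1.81, Col6a5 with 2.21 and Col9a2 with 3.42. Rogan-C3 holds 1 of the 5 libraries nearer to another strain, and without these libraries Col1a1 had 1.94 (adjusted p = 0.0123), Col1a2 1.965 (0.00991) and Col6a2 1.84 (0.00665). Without Rogan-C3 and the mice of the same number Col9a2 had 0.20, and the adjusted p of Col1a1 and Col1a2 were 0.280 and 0.249. With limma-voom none of the 6 passed (adjusted p from 0.150 to 0.535). The summed fibroblast markers of the 4 mice were 5995 to 9743 CPM, and their part in the result was not tested.

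KAV had 7 collagen genes higher (16.3%), against 4.82% of all genes: Col4a3, Col4a4, Col6a4, Col6a5, Col22a1, Col23a1 and Col26a1. Col6a4 was at 532 CPM in KAV-G2 and at 1.93 and 2.04 CPM in the other 2 mice, with a log2 fold change of 5.93 ± 0.57 (adjusted p = 5e-14). Col6a5, the next beaded filament chain, was at 630 CPM in KAV-G2 and at 1.55 and 79.9 CPM in the others. Col23a1 was spread over all 3 mice, at 36.1, 87.4 and 265 CPM against a median of 10.98 over all mice. Without KAV-G2, with the mice of the same number in other strains left out too, Col6a4 had a log2 fold change of -0.28, and none of the 7 passed. LAX had 6 collagen genes higher and 2 lower, where 16.3% of all genes were higher and 5.13% lower. Its lower genes were Col7a1, at 8.47 to 11.7 CPM in all 6 mice against a median of 60.3 over all mice (-3.95 ± 1.09, adjusted p = 0.0108), and Col16a1, a FACIT chain (-1.79 ± 0.57, adjusted p = 0.0363, and 0.209 without LAX-E2 and the mice of the same number). In LAX-E2 the liver markers summed to 388742 CPM, the highest of all mice, and without libraries over 1% of another tissue the adjusted p of Col7a1 was 0.0591. Among the higher genes of LAX, Col4a3 was at 83.7 CPM in LAX-E2, 9.56 CPM in LAX-K2 and 0.786 to 1.59 CPM in the other 4 mice, and without those libraries its log2 fold change was 1.61 (adjusted p = 0.136).

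**Figure D4:**
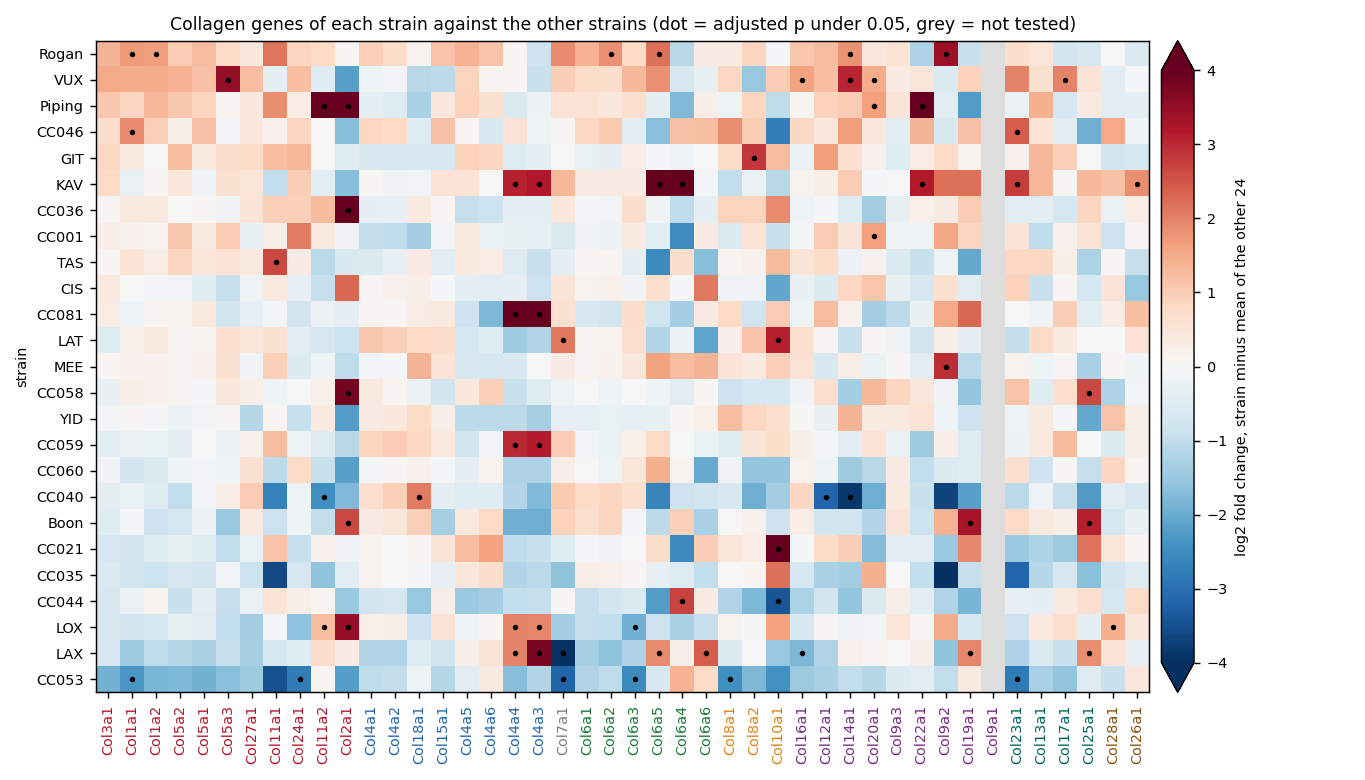
Log2 fold change of each collagen gene (columns) in each of the 25 strains (rows) against the mean of the other 24, in red where higher and blue where lower, with dots on the 67 values of adjusted p under 0.05. CC053 is the row with the most lower values marked (6) and KAV the row with the most higher values marked (7).

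Most collagen genes differed between mice of a strain by more than the spread between tumours of a mouse. Among 58 tumours of 25 mice in 10 strains, 32 of 42 collagen genes differed between mice of a strain (76.2%), against 63.3% of all genes tested. All 11 fibrillar and all 6 beaded filament chains passed, and 6 of 8 basement membrane chains. The lowest p were those of Col6a3 (F = 7.47, adjusted p = 1.83e-05), Col4a6 (7.03, 2.94e-05), Col15a1 (6.97, 3.12e-05) and Col4a5 (6.88, 3.52e-05). Col4a1 and Col4a2 did not pass, with adjusted p of 0.529 and 0.733. With limma-voom 25 collagen genes passed, where 55.5% of all genes did. Without the 5 libraries nearer to another strain 32 collagen genes passed as well, and the share of all genes is not given here.

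For all 44 genes the SD of log2 CPM was larger between mice of a strain than between tumours of a mouse. The SD between tumours came from the 35 mice with several tumours, and that between mice from all strains with several mice. The SD between mice thus holds the spread between tumours as well, and that of strain means holds both. For Col1a1 the SD of log2 CPM was 1.10 between tumours of a mouse, 1.43 between mice of a strain and 0.98 between strain means. For Col6a3 these were 0.79, 1.43 and 0.92, and for Col4a1 0.69, 1.04 and 0.65. Col4a6 had the widest gap, 1.10 between tumours and 2.18 between mice. Single mice show both ends. The 6 tumours of CC074-B3 had Col1a1 at 1964, 5027, 2416, 2714, 3192 and 1993 CPM. The 2 tumours of CC053-A1 had 5693 and 160 CPM, the widest gap in Col1a1. In CC059-E2 Col4a3 was at 0.730, 148.8 and 0.613 CPM in the 3 tumours and Col4a4 at 0.313, 174 and 0.831 CPM, so that both chains stood out in the same tumour. MEE-A3 had 305 and 5810 CPM of Col1a1, the first in a library nearer to CC044.

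Chains of one molecule moved together over mice. Correlations were computed for 28 pairs fixed by known assembly or known partnership, over 119 mice; 25 passed an adjusted p of 0.05 by r in a permutation test, with 1e-05 the smallest p that 100000 permutations can give. Both genes of a pair are read from the same libraries, which is common to all the pairs. Only these 28 pairs were tested, so how often other pairs of genes would pass in these tumours is not known. Col6a1 and Col6a2 had a Pearson r of 0.990 (Spearman rho 0.986, permutation p = 1e-05 each, adjusted 1.27e-05 for r), 0.989 without the 2 mice farthest from the median and 0.987 within strain. Col4a1 and Col4a2, whose windows printed above overlap, had an r of 0.985 (rho 0.979), 0.982 without 2 mice and 0.983 within strain. The part of the shared bases in this relation was not tested. The ratio of Col4a1 to Col4a2 CPM lay between 0.979 and 2.46 in all mice, with a median of 1.43, while Col4a1 itself lay between 31.3 and 2725 CPM and Col4a2 between 21.7 and 1512 CPM.

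Pairs within the fibrils were nearly as close. Col3a1 and Col5a2 had an r of 0.922 (rho 0.885), Col5a1 and Col5a2 0.917 (rho 0.889), Col1a1 and Col3a1 0.916 (rho 0.892) and Col1a1 and Col1a2 0.914 (rho 0.936). Leaving out the 2 farthest mice gave 0.910, 0.906, 0.903 and 0.901, and the values in the 16 mice with the highest library numbers and in the other mice lay between 0.902 and 0.964. The rarer type IV chains were related too: Col4a3 with Col4a4 had an r of 0.878 (rho 0.716) and Col4a5 with Col4a6 0.825 (rho 0.812), each with a permutation p of 1e-05. Col8a1 and Col8a2 had 0.598 (rho 0.569). Pairs of cartilage chains were weak: Col11a1 and Col11a2 had 0.187 (rho 0.230, adjusted p of r 0.0458) and 0.00053 within strain. Col9a1 and Col9a3 had 0.202 (rho 0.078, which did not pass), and 0.0658 without the 2 farthest mice, so that the relation rested on those.

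Between networks the relation was looser. Col1a1 and Col6a1 had an r of 0.751 (rho 0.661), Col4a1 and Col6a1 0.560 (rho 0.515) and Col1a1 and Col4a1 0.411 (rho 0.401), with permutation p of 2e-05 or below. Without 2 mice these were 0.710, 0.523 and 0.373. Col1a1 followed the collagen-binding glycoprotein Sparc with an r of 0.924 (rho 0.909) and the collagen chaperone Serpinh1 with 0.875 (rho 0.827). With Postn, a matrix protein of activated fibroblasts, it had 0.780, with the crosslinking enzyme Lox 0.774, with the fibroblast and pericyte receptor Pdgfrb 0.691, with fibronectin, Fn1, 0.636, and with Acta2, smooth muscle actin, 0.447. The relation of Col1a1 to the mesothelial gene Msln did not pass by either measure (r = 0.039, rho = -0.021, permutation p = 0.672 and 0.819 before and after adjustment). With the keratin Krt18 and the endothelial gene Pecam1, r did not pass and rho did. For Krt18 r was -0.081 and rho -0.186 (permutation p = 0.382 and 0.0438, adjusted 0.396 and 0.0471), and for Pecam1 r was 0.173 and rho 0.219 (permutation p = 0.0596 and 0.0170, adjusted 0.0642 and 0.0191). Col4a1 was related to Pecam1 with 0.510 (rho 0.554), to the laminin chain Lama4 with 0.478 (rho 0.417) and to nidogen, Nid1, with 0.403 (rho 0.313).

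**Figure D5:**
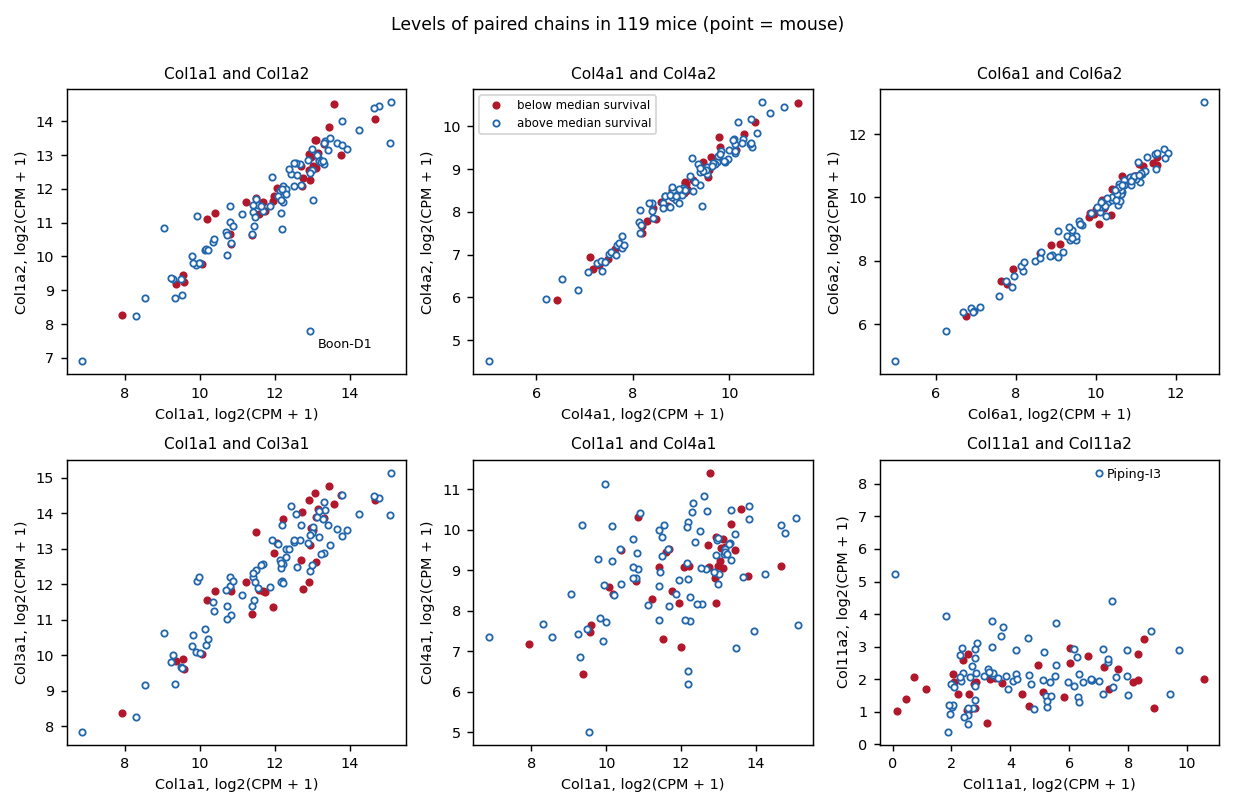
Levels of 6 pairs of collagen chains in 119 mice, as log2(CPM + 1) on both axes, with mice below and above median survival marked. Col4a1 and Col4a2 (r = 0.985) and Col6a1 and Col6a2 (r = 0.990) lie along a line, Boon-D1 lies away from the line of Col1a1 and Col1a2 (r = 0.914), and Piping-I3 has the highest Col11a2.

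The type I pair had an exception, named here after its values were seen. The ratio of Col1a1 to Col1a2 CPM had a median of 1.12 over all mice and lay between 0.526 and 1.72 in mice below median survival, and between 0.287 and 36.1 in mice above it. The value of 36.1 was that of Boon-D1, where Col1a2 was at 219 CPM and Col1a1 at 7920 CPM. The next highest ratio was 3.27, in CC046-H2. Both tumours of Boon-D1 showed it, with Col1a2 at 198 and 224 CPM and Col1a1 at 7381 and 7879 CPM. The other 3 Boon mice had Col1a2 at 6089, 1173 and 2964 CPM and Col1a1 at 8127, 1131 and 2994 CPM.

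Genes that make, crosslink, bind or break down collagen were followed by list. Between survival classes over all mice, none of 27 biosynthesis genes, 6 crosslinking genes, 10 turnover genes, 8 receptors and 15 other basement membrane genes passed. Of 15 proteoglycans and partners, only Kera, keratocan, a small proteoglycan of collagen fibrils, passed: it was higher in mice below median survival, with a log2 fold change of 2.43 ± 0.58 (adjusted p = 0.00751). The next in these lists were Timp1, an inhibitor of collagenases, with 0.88 ± 0.29 (adjusted p = 0.130), and P4ha3, a prolyl hydroxylase subunit, with 0.52 ± 0.26 (adjusted p = 0.529). Within strain none passed, with positive values for 15 of 15 other basement membrane genes (median 0.66), 22 of 27 biosynthesis genes (0.26), 9 of 10 turnover genes (0.38) and 5 of 6 crosslinking genes (0.70). The lowest p within strain had Postn with 1.70 ± 0.57, Tnc, tenascin C, with 1.46 ± 0.49, the laminin chain Lama2 with 1.42 ± 0.44 and the lysyl oxidase Loxl2 with 0.93 ± 0.33 (adjusted p = 0.402 each).

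Between strains 18 of 27 biosynthesis genes passed, 10 of 15 proteoglycans and partners, 6 of 15 other basement membrane genes, 5 of 10 turnover genes, 4 of 9 receptors and 2 of 6 crosslinking genes. Each of these shares was below the 69% of all genes. The lowest p had Kera (adjusted p = 9.15e-09), the laminin chain Lamb3 (2.94e-09), the collagenases Mmp8 (1.02e-06) and Mmp13 (4.51e-06), the tenascin Tnxb (2.26e-06) and Tll1, a protease that trims procollagens (2.94e-06). Among crosslinking genes Loxl3 and Loxl2 passed at adjusted p of 0.00844 and 0.0201, and among receptors Itgb1 and Itga11, which together bind type I collagen, at 0.00340 and 0.00530.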

How the data were processed

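RNA-seq was made from 167 whole tumours of 119 mice, and the libraries kept strand, per the labels' protocols. The authors deposited expected counts, estimated per gene with kallisto 0.46.1 on GRCm38 per the submitters' processing notes, which also name DESeq2 and DESeq; the sources used here do not give the annotation release. The deposited estimated counts are whole numbers and raw. A further deposited table, called normalized in its name, equals the first in all 3682183 cells that both hold (22049 genes) and was not used. Columns were joined to samples by title, 165 to 1 sample each and the 2 of mouse GIT-K1 only to their class, strain and mouse. Symbols were found for 35825 of 36118 gene IDs in a table of gene names, and lengths are those of the longest coding transcript in GENCODE vM21.

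Counts were summed over the tumours of a mouse, and the quasi-likelihood F-test of edgeR 4.0.16 was run in R 4.3.3 over all genes left by filterByExpr, with TMM factors, with Benjamini-Hochberg adjustment over all genes tested and a threshold of 0.05, two-sided. The SE is the log2 fold change over the square root of F, and intervals are 95% intervals from it by the normal distribution. Log2 CPM used a prior count of 2. limma 3.58.1 (voom), DESeq2 1.42.0, other normalizations and filters, and leaving out mice, strains and libraries were the alternatives. Without the 5 libraries nearer to another strain, without the 8 strains with Umod in every mouse and without the highest mouse of a gene were chosen after seeing the data. The median biological coefficient of variation between mice was 55.0%. The labels do not say that tumours of a mouse or mice of a strain were handled apart, so p-values measure only the spread between these samples. The scripts were tested on simulated data.

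Full values are given for the chains of types I, III, IV (Col4a1, Col4a2), V and VI (Col6a1 to Col6a3), every member that passed between survival classes or the 3 of lowest p, the 6 of lowest and 3 of highest p between strains, the 4 of lowest p between mice of a strain, and the strains with the most members called in each direction; of other lists, the 2 genes of lowest p. Other genes and mice were named after their values were seen. The members and lists were chosen with earlier results of these data known.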

Additional observations from a re-analysis of the deposited data

Results flagged for a closer look

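In 34 groups of 4 to 10 mice of a strain, the values of a collagen gene were searched for a mouse that stands apart. This was a highest or lowest mouse with a wide gap to the others of its strain, relative to the whole range. Chance alone gives about 1 in 20 such groups, and 2 were found. The 34 groups are a part of all pairs of a collagen gene and a strain, so mice that stand apart in other pairs are not counted. Col25a1, a transmembrane chain, was at 16.1 CPM in LAX-C2, a mouse below median survival, while the other 5 LAX mice had 0.450 to 1.22 CPM. Col6a2, a beaded filament chain, was at 8238 CPM in Rogan-J2, a mouse above median survival, while the other 3 Rogan mice had 1353 to 1766 CPM.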

How the results depend on the processing

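No paired analysis was possible because the replicate numbers were given in accession order and pair no mice. Between survival classes 1 collagen gene passed, against 3 with 1 tumour per mouse, 2 each with no filter on low counts, without libraries nearer to another strain and without strain LOX, and 0 each with DESeq2, with limma-voom, with strain as a covariate, without strain TAS and without the 8 strains with Umod in every mouse. Within strain the count was 0 in all 8 alternatives. Between strains it was 24, and 18 to 25 with 1 mouse of each strain left out. For each strain against the others it was 67, and 34 with limma-voom, 38 without the 8 Umod strains, and 42 to 63 with 1 mouse of each strain left out. Between mice of a strain it was 32, and 31 with 1 tumour left out. Of 331 alternatives for single genes between strains 284 gave the same call, and of 397 for a strain against the others 288 did; 96 of 96 within strain and 162 of 168 for pairs did. The share of all genes called is not given here for most of these alternatives, so whether the collagen counts only follow it is not known. The cause of each change was not tested.

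The sign between survival classes changed for these genes, none of which passed either way. With strain as a covariate Col1a1 had 0.52, Col4a1 0.63 and Col4a2 0.59. With limma-voom Col1a1 had 0.22 and Col4a2 0.0058, and with DESeq2 Col5a3 had -0.013 and Col27a1 -0.048. Without the 17 libraries with the highest numbers Col5a1 had -0.034, Col5a3 -0.27, Col6a1 -0.038, Col6a2 -0.068 and Col6a3 -0.13. Without the 8 Umod strains Col3a1 had -0.011, Col6a1 -0.081, Col6a2 -0.096 and Col6a3 -0.059. Without strain LOX Col6a2 had -0.0061 and Col6a3 -0.026, without strain TAS Col4a1 had 0.0053, and with 1 tumour per mouse Col6a1 had -0.0049 and Col6a2 -0.014. In KAV without replicate 3, KAV-G2, Col26a1 had -0.091, Col6a4 -0.28, Col4a4 -0.14, Col22a1 -1.14 and Col4a3 -0.097, and without the other replicates these reached up to 2.46, 6.74, 3.63, 3.83 and 3.89. In LAX Col25a1 had -0.17 without replicate 1, LAX-C2, and up to 2.61 without the others. The correlation of Col1a1 with Krt18 was 0.0091 without libraries over 1% of another tissue. Depth limits the rare chains. Between survival classes Col9a1 and Col19a1 had too few counts to be tested, and within strain Col2a1 and Col9a2 had too few as well. Between strains Col19a1 was tested and Col9a1 was not.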
